A study of Homo sapiens with 6 samples.

Results

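The 41 genes described here encode proteins of the mitotic spindle, the kinetochore, the spindle checkpoint and the last steps of cell division. They are a list of named genes among 60658 gene identifiers, of which 17436 reached 1 FPKM in at least 1 library and are called measured. All 41 were measured. FPKM scales fragments by transcript length and by the size of the library, so levels of different genes can be set side by side.

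The study sequenced mRNA of 6 human cell lines of prostate cancer, 1 library per line. CabR is a subline resistant to cabazitaxel and was derived from TaxR, the docetaxel-resistant subline of C4-2B, a castration-resistant descendant of LNCaP. CTXR is the cabazitaxel-resistant subline of DTXR, which is the docetaxel-resistant subline of DU145, a prostate carcinoma line with no androgen dependence. CabR and CTXR were kept under 5 nM cabazitaxel and TaxR and DTXR under 5 nM docetaxel, while no drug is named for the parental lines, and the labels list every line as untreated before harvest. Whether a subline is 1 clone or a mixed population is not given in the sources used here, and the title of the TaxR sample carries the word old, which is not explained. Total FPKM was 711766 to 818430 per library, and the read depth is unknown. Mitochondrial genes held 26.5% of it in CabR, 27.9% in TaxR and 17.9% in C4-2B, and 35.3% in CTXR, 40.2% in DTXR and 40.7% in DU145.

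Taxanes bind microtubules and stabilise them, and cells exposed to them are held in mitosis by the spindle checkpoint. The checkpoint proteins sit on kinetochores that lack a proper microtubule attachment and block CDC20, the activator of the anaphase-promoting complex, so that securin and cyclin B are kept and the chromatids stay joined. Most of these genes are transcribed late in the cell cycle, with FOXM1, B-MYB and the MuvB proteins among the known activators, acting through CCAAT boxes bound by NF-Y and through an element called the cell cycle genes homology region, or CHR. In a culture, fewer cells in the dividing phase and less of each RNA per dividing cell cannot be told apart in these data.

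The upstream sequences of 8 members are printed because these genes carry the differences described below. CCNB1, CCNB2, BUB1B, NDC80 and NUSAP1 were higher in CabR and lower in CTXR, each against the docetaxel-resistant line. PTTG1 and CENPF had the highest ratios in CabR, and MKI67 the lowest in CTXR. Each line holds the 150 bases before the RefSeq start site on the gene's strand in GRCh38.p14, read 5′ to 3′. Capitals mark CCAAT or its reverse complement ATTGG, and TTTGAA or its reverse complement TTCAAA, the core letters of the CHR.

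CCNB1 (chr5:69167000-69167149, plus strand): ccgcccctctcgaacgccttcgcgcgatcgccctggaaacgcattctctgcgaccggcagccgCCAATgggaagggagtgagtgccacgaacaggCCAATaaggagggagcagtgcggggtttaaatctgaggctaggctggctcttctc
CCNB2 (chr15:59104996-59105145, plus strand): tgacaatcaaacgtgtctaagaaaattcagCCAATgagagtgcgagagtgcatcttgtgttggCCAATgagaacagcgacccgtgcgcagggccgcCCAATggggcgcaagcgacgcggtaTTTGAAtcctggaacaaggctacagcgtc
BUB1B (chr15:40160919-40161068, plus strand): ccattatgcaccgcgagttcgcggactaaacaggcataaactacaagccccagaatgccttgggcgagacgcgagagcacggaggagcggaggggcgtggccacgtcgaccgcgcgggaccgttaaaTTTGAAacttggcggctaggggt
NDC80 (chr18:2571407-2571556, plus strand): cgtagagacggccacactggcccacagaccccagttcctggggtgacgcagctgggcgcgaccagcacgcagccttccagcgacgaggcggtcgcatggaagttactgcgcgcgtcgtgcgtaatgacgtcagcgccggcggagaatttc
NUSAP1 (chr15:41332731-41332880, plus strand): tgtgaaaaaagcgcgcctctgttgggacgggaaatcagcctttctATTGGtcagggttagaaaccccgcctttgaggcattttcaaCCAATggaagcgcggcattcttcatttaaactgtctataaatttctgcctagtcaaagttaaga
PTTG1 (chr5:160421705-160421854, plus strand): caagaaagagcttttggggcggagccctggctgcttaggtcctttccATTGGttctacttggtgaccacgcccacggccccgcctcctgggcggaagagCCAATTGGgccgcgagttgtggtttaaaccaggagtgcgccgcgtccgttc
CENPF (chr1:214603045-214603194, plus strand): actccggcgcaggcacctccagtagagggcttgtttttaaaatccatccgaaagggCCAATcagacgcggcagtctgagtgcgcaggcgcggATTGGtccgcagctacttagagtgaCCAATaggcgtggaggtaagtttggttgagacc
MKI67 (chr10:128126424-128126573, minus strand): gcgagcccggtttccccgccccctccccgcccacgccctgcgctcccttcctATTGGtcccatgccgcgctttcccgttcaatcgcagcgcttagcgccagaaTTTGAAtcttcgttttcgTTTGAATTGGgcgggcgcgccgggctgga

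Both cyclin B promoters held more than 1 CCAAT match, and in CCNB2 a TTTGAA match lay at position -29, nearest the start. BUB1B held only the TTTGAA match and NDC80 neither motif in the bases shown. The run CCAATTGG in PTTG1 is a pair of matches on opposite strands that overlap by 2 bases, and in MKI67 a TTTGAA match overlaps an ATTGG match by 1 base. RefSeq lists 2 start entries for PTTG1, and the first was used.

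Over the 250 bases before the start, on both strands, CCAAT was found in 25 of the 33 members that were matched in the promoter table (75.8%), against 37% of all 27305 genes in it. TTTGAA was found in 18 members (54.5%), against 16.1% of all genes, and both motifs in 16 members (48.5%), against 5.79%. The variant TTCGAA was found in no member and in 1.5% of all genes, and the E2F octamers TTTCGCGC and TTTGGCGC in 1 member each (3.03%), against 0.542% and 0.681% of all genes. Among the 10807 measured protein-coding genes with a promoter the shares were 41.7% for CCAAT, 11.7% for TTTGAA and 4.55% for both. They were 1.89% for TTCGAA, and 1.04% and 1.1% for the E2F octamers. AURKA, BIRC5, BUB3, FOXM1, KNL1, TPX2, TTK and UBE2C were not matched. With the 50 bases after the start added, TTTGAA was found in 23 members (69.7%), NDC80 included, against 18.2% of all genes. TTCGAA was then found in 2 members, BUB1 and NDC80 (6.06%), against 1.82% of all genes. The match nearest the start had its first base at a median of -55 for CCAAT and -29 for TTTGAA, counting back from -1 at the base before the start. A match is a description of these letters and not a measured binding site. Members with CCAAT had a median log2 ratio of 0.67 in CabR against TaxR and the 8 without it 0.54, and the medians were -0.20 and 0.10 in CTXR against DTXR. Members with TTTGAA had a median log2 ratio of 0.64 in CabR against TaxR and those without it 0.60, and the medians were -0.19 and -0.03 in CTXR against DTXR.

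All 41 genes were above 5 FPKM in every line, and 36 to 39 of them exceeded the median of measured protein-coding genes in each library. Their summed level was 2363 FPKM in CabR, 1495 FPKM in TaxR and 1946 FPKM in C4-2B. It was 1788 FPKM in CTXR, 1854 FPKM in DTXR and 2033 FPKM in DU145. In the C4-2B lineage the sum was highest in CabR and lowest in TaxR. In the DU145 lineage the sum was highest in the parent and lowest in CTXR.

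**Figure D1:**
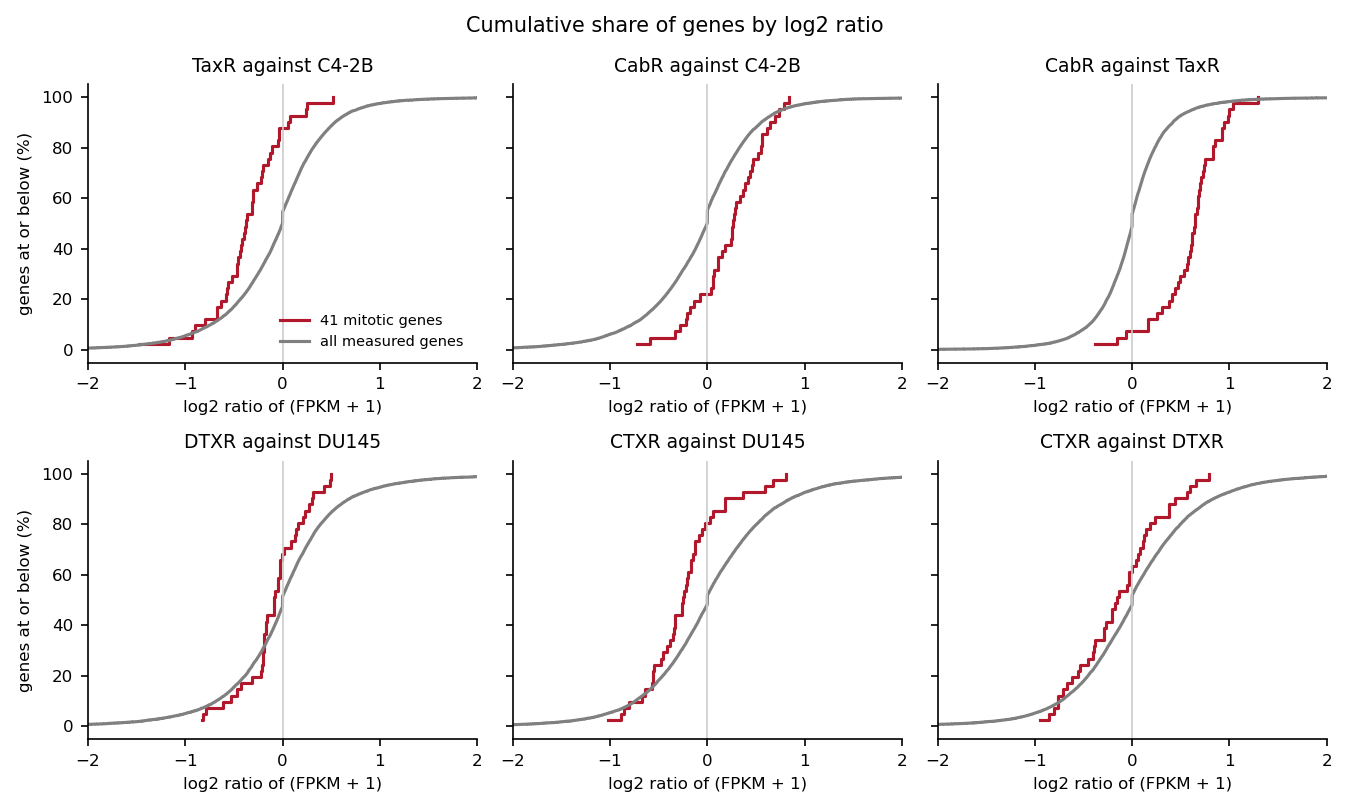
Cumulative share of genes (vertical axes, %) by log2 ratio of (FPKM + 1) (horizontal axes, drawn from -2 to 2) in the 6 comparisons, for the 41 mitotic genes in red and all 17436 measured genes in grey. The red curve lies right of the grey over most of its range in CabR against TaxR, where the mitotic median was 0.65 and the median of all measured genes 0, and left of it for most genes in TaxR against C4-2B, where the mitotic median was -0.38.

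Ratios are given on the log2(FPKM + 1) scale, and a gene counts as higher or lower by size alone, at 2-fold or at 1.5-fold, because a pair of lines has 1 library each and so no replicate error and no test. In CabR against TaxR the members' median log2 ratio was 0.65, or 1.57-fold, with 38 of 41 ratios positive, as were 46.5% of those of all measured genes. By the 2-fold rule 2 members were higher, PTTG1 and CENPF, where 1.75% of all measured genes were, and none was lower, where 1.84% were. By the 1.5-fold rule 26 members were higher (63.4%), against 5.62% of all measured genes, and none was lower, against 6.19%.

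In TaxR against C4-2B the median was -0.38, with 36 of 41 ratios negative, against 50.2% over all measured genes. PTTG1 and KNL1 were lower by the 2-fold rule, which 5.64% of all measured genes passed, and none was higher (2.52%). By the 1.5-fold rule 8 members were lower and none was higher, where the shares of all measured genes were 14% and 8.59%. The mitochondrial share was higher in TaxR than in C4-2B, and with mitochondrial genes left out of the scaling the median was -0.35. In CabR against C4-2B, its parental line, the median was 0.26 with 32 ratios positive (44.9% of all measured genes). No member passed 2-fold there in either direction, where 2.67% of all measured genes were higher and 6.2% lower. By the 1.5-fold rule 6 were higher, against 9.04%, and 2 were lower, against 15.3%. These 3 comparisons share libraries, so the level in TaxR enters CabR against TaxR and TaxR against C4-2B with opposite signs.

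In CTXR against DTXR the median was -0.15, or -0.26 with mitochondrial genes left out of the scaling, and 26 ratios were negative (48.1% of all measured genes). No member passed 2-fold, where 7.29% of all measured genes were higher and 5.25% lower. UBE2C, ECT2 and TACC3 were 1.5-fold higher (all measured genes 16.6%) and 8 members were 1.5-fold lower (14.7%).

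In CTXR against DU145 the median was -0.25, with 33 ratios negative (48.2% of all measured genes). MKI67 was 2-fold lower (5.47%) and no member 2-fold higher (7.45%), while 3 members were 1.5-fold higher (17%) and 6 were 1.5-fold lower (14.8%). In DTXR against DU145 the median was -0.09, with 28 ratios negative (47.4%) and none past 2-fold, where 5.37% of all measured genes were higher and 5.1% lower. SPC24, TACC3, TOP2A and CENPE were 1.5-fold lower there (12.6%), and no member was 1.5-fold higher (12.5%). By the 1.5-fold rule, the shares of members called in these 3 comparisons were 0 to 19.5%, and those of all measured genes 12.5% to 17%.

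Most members had the same order of lines in the C4-2B lineage. TaxR was the lowest line for 34 of 41 members, where it was lowest for 27.9% of measured genes, and CabR was the highest for 31 (27 with the libraries brought to equal totals), against 28.6%. C4-2B was highest for 9 members (40.3% of measured genes), and MAD1L1 alone peaked in TaxR. In the DU145 lineage CTXR was lowest for 24 members (34.2% of measured genes) and DU145 highest for 25 (30.8%).

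**Figure D2:**
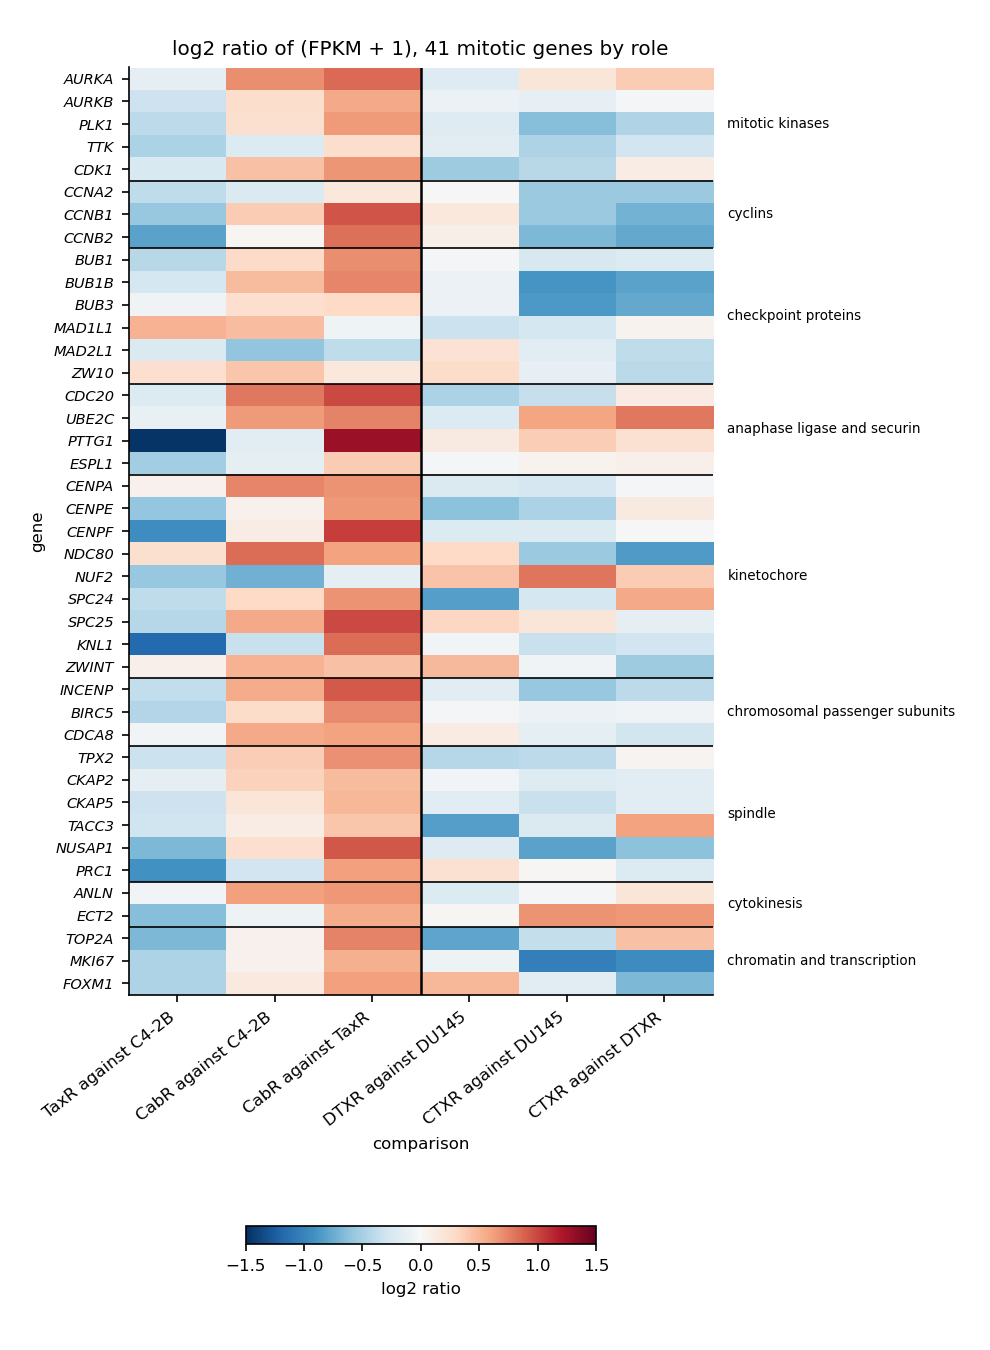
log2 ratio of (FPKM + 1) for each of the 41 genes (rows, grouped by role) in the 6 comparisons (columns), red for higher and blue for lower in the line named first, with colour limits of -1.5 and 1.5. The column of CabR against TaxR is red for 38 of 41 genes, with MAD2L1, NUF2 and MAD1L1 the exceptions, and the column of CTXR against DTXR is blue for 26.

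The mitotic kinases were all lower in TaxR than in C4-2B and all higher in CabR than in TaxR. CDK1, the kinase that drives entry into mitosis, had the highest level of any member in the C4-2B lineage, with 382 FPKM in CabR, 240.0 FPKM in TaxR and 281 FPKM in C4-2B, and 88.1, 81.2 and 118 FPKM in CTXR, DTXR and DU145. AURKA, which matures the spindle poles, had 49.3 FPKM in CabR, 26.9 FPKM in TaxR and 30.0 FPKM in C4-2B, and 61.5, 47.0 and 54.0 FPKM in CTXR, DTXR and DU145. The highest value of AURKA in each lineage was in the cabazitaxel-resistant line, with log2 ratios to the docetaxel-resistant line of 0.85 in CabR and 0.38 in CTXR. PLK1, a kinase of the poles, kinetochores and midzone, had 53.1 FPKM in CabR, 33.9 FPKM in TaxR and 44.8 FPKM in C4-2B, but 34.9 FPKM in CTXR, 48.0 FPKM in DTXR and 54.8 FPKM in DU145. AURKB, the kinase of the chromosomal passenger complex that releases faulty attachments, had 62.0, 41.4 and 51.6 FPKM in CabR, TaxR and C4-2B, and 74.8, 76.5 and 81.5 FPKM in CTXR, DTXR and DU145, a difference of at most 0.12 in size on the log2 scale within the DU145 lineage. TTK, the checkpoint kinase also called MPS1, was the least abundant kinase at 9.91, 8.11 and 11.6 FPKM in CabR, TaxR and C4-2B and 12.8, 15.8 and 18.0 FPKM in CTXR, DTXR and DU145.

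The B-type cyclins, the partners of CDK1 that are destroyed at anaphase, had opposite ratios in the 2 cabazitaxel-resistant lines. CCNB1 had 114 FPKM in CabR, 58.7 FPKM in TaxR and 87.2 FPKM in C4-2B, and 45.3 FPKM in CTXR, 74.5 FPKM in DTXR and 66.8 FPKM in DU145. CCNB2 had 54.9 FPKM in CabR, 30.4 FPKM in TaxR and 53.6 FPKM in C4-2B, and 28.4 FPKM in CTXR, 48.9 FPKM in DTXR and 45.8 FPKM in DU145. For both genes CTXR was the lowest line of its lineage, and CabR the highest of its own. Against the docetaxel-resistant line, the log2 ratios of CCNB1 were 0.95 in CabR and -0.71 in CTXR, and those of CCNB2 were 0.83 and -0.76. CCNA2, the cyclin of S phase and early mitosis, had 23.7, 21.1 and 27.8 FPKM in CabR, TaxR and C4-2B and 17.8, 26.7 and 26.7 FPKM in CTXR, DTXR and DU145. It overlaps EXOSC9 on the opposite strand. Its values are uncertain for that reason, because the sources used here do not say how strand was handled in counting.

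Of the 6 checkpoint proteins, 4 had positive ratios in CabR against TaxR, 2 of them past 1.5-fold, and 5 had negative ratios in CTXR against DTXR, 2 of them past 1.5-fold. BUB1B, the BubR1 subunit of the mitotic checkpoint complex, had 30.4 FPKM in CabR, 17.9 FPKM in TaxR and 21.7 FPKM in C4-2B, and 18.7 FPKM in CTXR, 33.3 FPKM in DTXR and 35.4 FPKM in DU145. Its log2 ratio was 0.73 in CabR against TaxR and -0.80 in CTXR against DTXR. BUB3, which binds BUB1 and BubR1 to the kinetochore, had 106, 85.9 and 89.1 FPKM in CabR, TaxR and C4-2B, and 57.6, 98.7 and 105 FPKM in CTXR, DTXR and DU145. CTXR was thus well below the other 5 lines for BUB3. BUB1, the kinetochore kinase, had 23.9 FPKM in CabR, 14.3 FPKM in TaxR and 19.4 FPKM in C4-2B and lay between 21.6 and 25.7 FPKM in the DU145 lineage.

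MAD2L1, the MAD2 protein that converts to its closed form on CDC20, was with MAD1L1 and NUF2 1 of 3 members with a negative ratio in CabR against TaxR. It had 26.7 FPKM in CabR, 35.0 FPKM in TaxR and 40.7 FPKM in C4-2B, so that CabR was the lowest line, and 31.8, 41.7 and 35.8 FPKM in CTXR, DTXR and DU145. It was the only member with a negative ratio in both cabazitaxel-resistant lines against their docetaxel-resistant lines, at -0.38 in both, joined by MAD1L1 when libraries were scaled without mitochondrial genes. MAD1L1, which recruits MAD2 to kinetochores, had 10.8, 11.3 and 7.55 FPKM in CabR, TaxR and C4-2B and 11.8, 11.3 and 14.3 FPKM in CTXR, DTXR and DU145. ZW10, part of the complex that brings dynein to kinetochores, had 15.0, 13.3 and 10.9 FPKM in CabR, TaxR and C4-2B and 9.48, 12.8 and 10.5 FPKM in CTXR, DTXR and DU145. Neither gene had its lowest value in TaxR.

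All 4 genes that act at the onset of anaphase had positive ratios in both cabazitaxel-resistant lines against their docetaxel-resistant lines, except ESPL1 in CTXR with mitochondrial genes left out of the scaling. PTTG1, securin, which holds separase inactive, had 92.5 FPKM in CabR, 37.2 FPKM in TaxR and 105 FPKM in C4-2B, and 110.2 FPKM in CTXR, 93.7 FPKM in DTXR and 85.0 FPKM in DU145. TaxR was far below the other 5 lines, with log2 ratios of -1.47 for TaxR against C4-2B and 1.29 for CabR against TaxR, the lowest and highest of any member in those comparisons. Its related copies PTTG2 and PTTG3P were listed at 0 in every line. CDC20 had 123 FPKM in CabR, 61.5 FPKM in TaxR and 71.0 FPKM in C4-2B, and 90.2, 82.6 and 115 FPKM in CTXR, DTXR and DU145, and its CabR ratio to TaxR, 0.99, lay just under the 2-fold rule.

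UBE2C, the ubiquitin-conjugating enzyme of the anaphase-promoting complex, had 126 FPKM in CabR, 74.5 FPKM in TaxR and 80.3 FPKM in C4-2B, and 162 FPKM in CTXR, 93.2 FPKM in DTXR and 107 FPKM in DU145. It was the only member at least 1.5-fold higher in both cabazitaxel-resistant lines than in their docetaxel-resistant lines, joined under some scalings by ECT2 or SPC24. That is 2.44% of the members, against 1.01% of measured genes. The log2 ratios of UBE2C were 0.75 in CabR and 0.79 in CTXR. A processed copy, UBE2CP5, was listed at 4.52 to 7.10 FPKM and could share reads with it. ESPL1, separase, the protease that cuts cohesin, had 17.1, 13.0 and 19.0 FPKM in CabR, TaxR and C4-2B and 15.8 to 16.7 FPKM in the DU145 lineage.

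**Figure D3:**
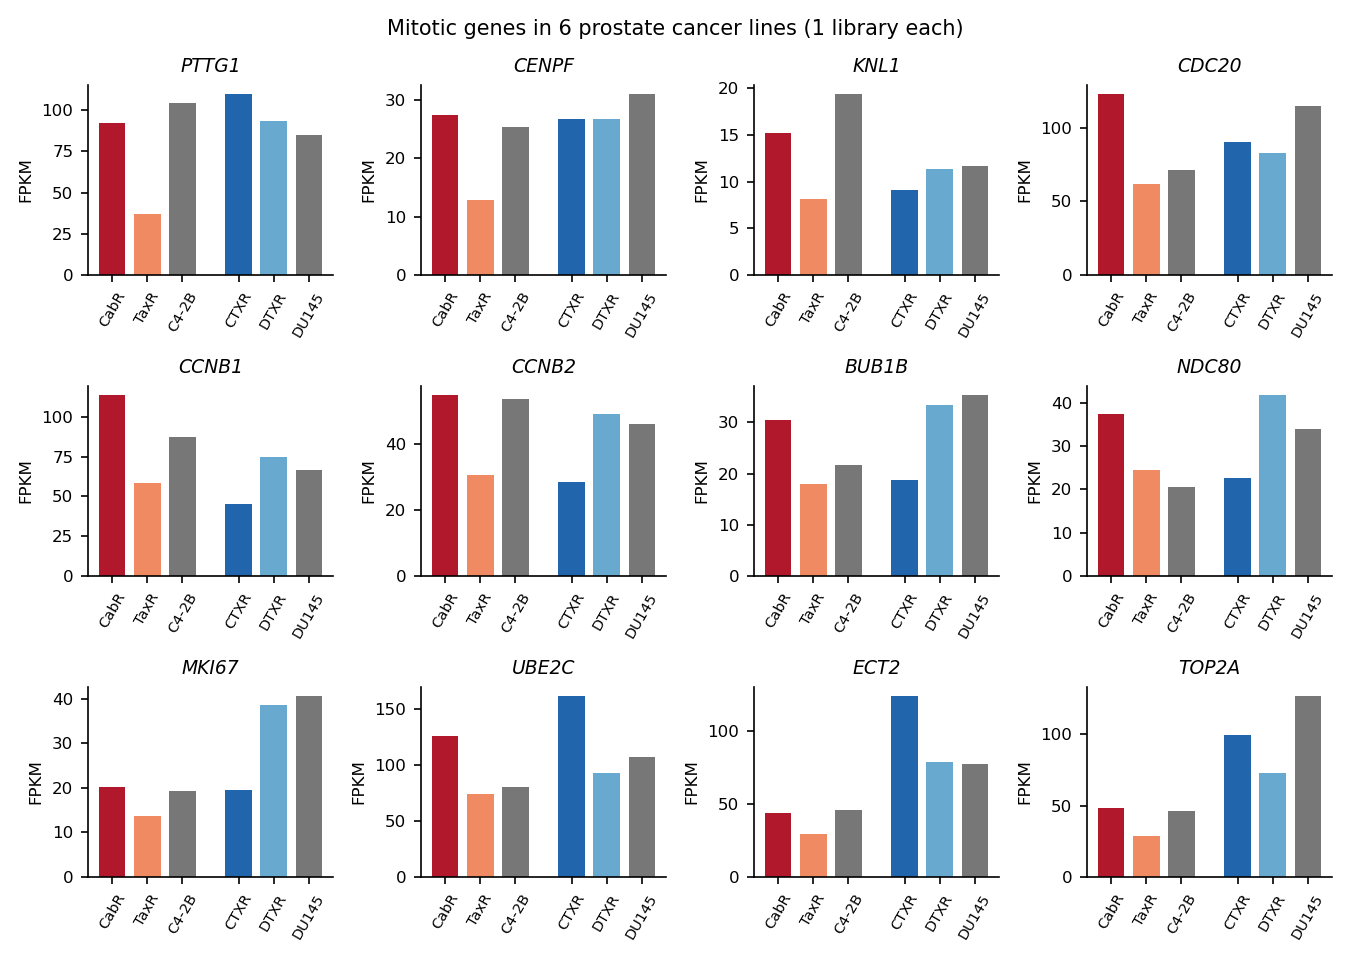
FPKM (vertical axes, from 0) of 12 mitotic genes in the 6 lines, 1 bar per library and no error bars since each line has 1 library. TaxR is the lowest of its 3 lines in 11 of these 12 panels, with NDC80 the exception, and CTXR is the lowest of its 3 in the panels of KNL1, CCNB1, CCNB2, BUB1B, NDC80 and MKI67. CENPF is level in CTXR and DTXR at 26.8 FPKM.

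At the kinetochore, the platform that couples chromosomes to microtubules, the 4 subunits of the NDC80 complex did not share a direction. NDC80, its main microtubule-binding subunit, had 37.5 FPKM in CabR, 24.4 FPKM in TaxR and 20.5 FPKM in C4-2B, and 22.8 FPKM in CTXR, 41.9 FPKM in DTXR and 33.9 FPKM in DU145. NUF2, its dimer partner, had 24.5, 27.3 and 41.1 FPKM in CabR, TaxR and C4-2B, and 25.4, 19.3 and 14.1 FPKM in CTXR, DTXR and DU145. NDC80 was thus highest in CabR and lowest in CTXR of their lineages, and NUF2 was the reverse.

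SPC24, which joins the inner kinetochore, had 49.2, 30.4 and 39.8 FPKM in CabR, TaxR and C4-2B, and 17.0, 11.2 and 20.6 FPKM in CTXR, DTXR and DU145. SPC25, its partner, had 20.6, 9.89 and 13.6 FPKM in CabR, TaxR and C4-2B, and 9.93, 11.0 and 8.65 FPKM in CTXR, DTXR and DU145. The log2 ratios of CabR against TaxR were 0.60 for NDC80, -0.15 for NUF2, 0.67 for SPC24 and 0.99 for SPC25, and those of CTXR against DTXR were -0.85, 0.38, 0.56 and -0.13 in the same order. SPC25 overlaps NOSTRIN and NUF2 overlaps RGS5, both on the opposite strand, with the same uncertainty as CCNA2, and the values of SPC24 are uncertain as well.

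CENPF, a large protein that gathers at kinetochores in late G2, had 27.5 FPKM in CabR, 12.9 FPKM in TaxR and 25.4 FPKM in C4-2B, and 26.8, 26.8 and 31.1 FPKM in CTXR, DTXR and DU145. KNL1, the scaffold that docks the BUB proteins, had 15.3 FPKM in CabR, 8.11 FPKM in TaxR and 19.5 FPKM in C4-2B, and 9.11, 11.3 and 11.7 FPKM in CTXR, DTXR and DU145. Both were lowest in TaxR among all 6 lines, with log2 ratios of 1.04 for CENPF in CabR against TaxR and -1.17 for KNL1 in TaxR against C4-2B. CENPE, a kinesin that carries chromosomes to the spindle equator, had 8.51, 5.07 and 8.10 FPKM in CabR, TaxR and C4-2B, and 14.8, 13.3 and 20.9 FPKM in CTXR, DTXR and DU145. CENPA, the histone variant that marks the centromere, had 33.9, 20.8 and 19.9 FPKM in CabR, TaxR and C4-2B and 39.6, 40.6 and 47.3 FPKM in CTXR, DTXR and DU145. It overlaps SLC35F6 on the same strand. ZWINT, which binds KNL1, had 82.0, 60.3 and 57.0 FPKM in CabR, TaxR and C4-2B, and 37.4, 54.7 and 38.8 FPKM in CTXR, DTXR and DU145.

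The 3 subunits that hold AURKB in the chromosomal passenger complex were each at least 1.5-fold higher in CabR than in TaxR and had negative ratios in CTXR against DTXR. INCENP, the scaffold, had 50.1 FPKM in CabR, 25.9 FPKM in TaxR and 33.8 FPKM in C4-2B, and 30.4, 40.2 and 45.5 FPKM in CTXR, DTXR and DU145. BIRC5, survivin, had 77.3, 46.9 and 63.7 FPKM in CabR, TaxR and C4-2B and 74.1, 76.9 and 78.5 FPKM in CTXR, DTXR and DU145. CDCA8, borealin, had 32.2, 20.8 and 21.4 FPKM in CabR, TaxR and C4-2B and 17.0, 20.8 and 18.9 FPKM in CTXR, DTXR and DU145. Of the 3, INCENP differed the most within the DU145 lineage, with a log2 ratio of -0.57 for CTXR against DU145.

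The 6 spindle proteins were all lower in TaxR than in C4-2B and all higher in CabR than in TaxR. NUSAP1, which bundles spindle microtubules, had 82.4 FPKM in CabR, 42.8 FPKM in TaxR and 69.0 FPKM in C4-2B, and 53.3 FPKM in CTXR, 82.0 FPKM in DTXR and 93.9 FPKM in DU145. PRC1, the bundler of the central spindle, had 64.2, 41.4 and 78.4 FPKM in CabR, TaxR and C4-2B, and 63.8, 73.6 and 62.8 FPKM in CTXR, DTXR and DU145. TACC3, a clathrin partner on spindle fibres, had 85.5, 63.9 and 79.1 FPKM in CabR, TaxR and C4-2B, and 38.2, 24.9 and 44.7 FPKM in CTXR, DTXR and DU145. NUSAP1 was thus lowest in TaxR and CTXR, and TACC3 in TaxR and DTXR. TPX2, which activates AURKA, had 51.2, 31.5 and 39.5 FPKM in CabR, TaxR and C4-2B and 44.7, 43.4 and 58.8 FPKM in CTXR, DTXR and DU145. CKAP2 lay between 28.3 and 40.0 FPKM over all 6 lines and CKAP5, the microtubule polymerase chTOG, between 21.7 and 38.4 FPKM.

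Both cytokinesis genes had positive ratios in CabR against TaxR and in CTXR against DTXR. ECT2, the exchange factor that switches on RhoA at the cleavage furrow, had 43.4, 29.1 and 45.8 FPKM in CabR, TaxR and C4-2B, and 124, 78.4 and 77.4 FPKM in CTXR, DTXR and DU145. ANLN, anillin of the contractile ring, had 44.7, 28.2 and 28.9 FPKM in CabR, TaxR and C4-2B and 47.6, 41.9 and 48.3 FPKM in CTXR, DTXR and DU145. ECT2 was highest in CTXR of the 6 lines, with a log2 ratio of 0.67 to DU145 and 0.65 to DTXR.

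The last 3 members act on chromatin or transcription. MKI67, the Ki-67 protein that coats mitotic chromosomes and marks proliferating cells, had 20.2 FPKM in CabR, 13.7 FPKM in TaxR and 19.3 FPKM in C4-2B, and 19.5 FPKM in CTXR, 38.6 FPKM in DTXR and 40.8 FPKM in DU145. FOXM1, the transcription factor, had 66.3 FPKM in CabR, 43.0 FPKM in TaxR and 59.6 FPKM in C4-2B, and 29.2, 47.1 and 33.0 FPKM in CTXR, DTXR and DU145. TOP2A, topoisomerase II, had 48.1, 28.4 and 45.9 FPKM in CabR, TaxR and C4-2B and 99.5, 73.2 and 127 FPKM in CTXR, DTXR and DU145. The log2 ratio of MKI67 in CTXR against DU145 was -1.03, the lowest of any member there. MKI67 and FOXM1 were lowest in CTXR within the DU145 lineage and TOP2A was lowest in DTXR, while TaxR had the lowest value of its lineage for all 3. FOXM1 overlaps ITFG2 and RHNO1 on the opposite strand.

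Levels of most members overlapped between the lineages. CDK1, SPC24, ZWINT, CDCA8 and TACC3 were separated, with every C4-2B-lineage library above every DU145-lineage library, as were 28.6% of measured genes. AURKB, TTK, CENPA, CENPE, ECT2 and TOP2A were separated the other way, as were 27.2% of measured genes. These are 12.2% and 14.6% of the 41 members, and the difference from the measured genes was not tested. For CDCA8 the nearest libraries, TaxR and DTXR, both round to 20.8 FPKM. Under every scaling tried CDK1, SPC24 and TACC3 kept the first separation and AURKB, CENPA, CENPE, ECT2 and TOP2A the other, while ZWINT, CDCA8 and TTK did not under at least 1 of them.

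The 2 cabazitaxel steps, each from a docetaxel-resistant line to the cabazitaxel-resistant line derived from it, share no library and can be set against each other. Ratios were positive in both for 13 members (31.7%), against 22.2% of measured genes, among them AURKA, CDK1, UBE2C, PTTG1 and ECT2. They were positive in CabR and negative in CTXR for 25 members (61.0%), a pattern seen in 22.9% of measured genes. CCNB1, CCNB2, BUB1B, NDC80, NUSAP1 and FOXM1 passed 1.5-fold in both directions (14.6%), against 0.855% of measured genes. These shares largely reflect the CabR step, where 38 of 41 ratios were positive and 26 members were 1.5-fold higher. Whether the 2 steps are linked was not tested by them. Under other scalings 22 to 27 members had opposite signs and 5 to 7 passed 1.5-fold in both directions. Across the 41 genes, which are not independent replicates, the ratios of the steps had a Pearson correlation of 0.056.

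**Figure D4:**
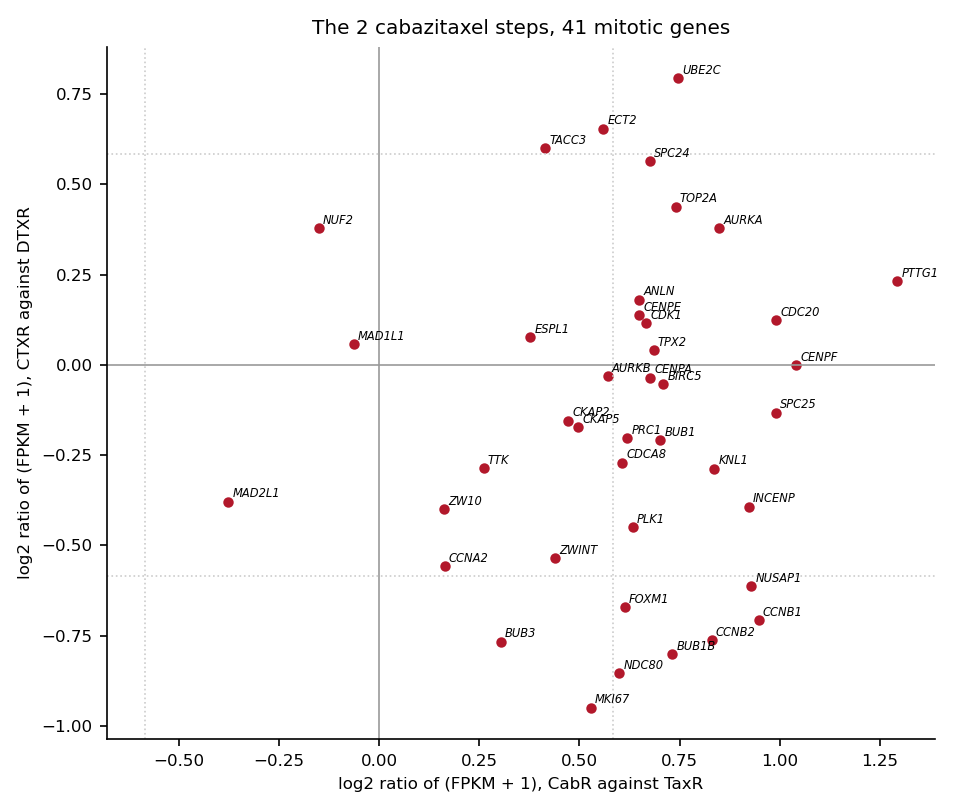
log2 ratio of (FPKM + 1) for CabR against TaxR (horizontal) and for CTXR against DTXR (vertical), 1 point per gene for the 41 genes, with solid lines at 0 and dotted lines at 1.5-fold. Most points lie right of 0, with 25 of them in the lower right, and UBE2C is the only point past the dotted lines at the upper right.

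The design repeats the selection in 2 parental lines, and limma was fitted to all 6 libraries with lineage and drug resistance as terms. By limma 0 genes (0%) had a Benjamini-Hochberg adjusted p below 0.05 in any of the 4 contrasts. For cabazitaxel-resistant against docetaxel-resistant lines, 416 measured genes (2.39%) and 3 members, AURKA, TOP2A and UBE2C, had an unadjusted p below 0.05 in limma. UBE2C was higher by 0.77 on the log2 scale (SE 0.22, in 2 of 2 lineages), with a limma adjusted p of 1.0. TOP2A alone of the members reached that level for docetaxel-resistant against parental lines (772 genes, 4.43%), and UBE2C alone for cabazitaxel-resistant against parental lines (835 genes, 4.79%).

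The difference between the cabazitaxel steps was tested in the same way under a docetaxel step shared by both lineages. The limma estimate is then the mean of the lineage difference taken from the docetaxel-resistant lines and that taken from the parental lines. The fit had only 1 residual degree of freedom among the libraries before the spread was shared over genes. It is how far the docetaxel steps differ between the lineages. NDC80, CDC20, NUSAP1, MKI67, INCENP, BUB3, BUB1B and PLK1 had an unadjusted limma p below 0.05, as did 5.59% of measured genes. The estimate, the C4-2B lineage minus the DU145 lineage, was 1.44 on the log2 scale for BUB1B (SE 0.33) and 1.42 for NDC80 (SE 0.31), while the plain differences of the steps from the docetaxel-resistant lines were 1.53 and 1.45. The lowest limma adjusted p of any member was 0.76. On simulated data for cabazitaxel-resistant against docetaxel-resistant lines, limma recovered 3 of 100 genes changed by a log2 ratio of 1 and 99 of 100 changed by 3. It made 15 false calls among the unchanged genes of the 17436. The share of false calls among all calls was thus above the 0.05 level.

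In CTXR the members' ratios tended to go with those of the genes around them on the chromosome. For each member the median log2 ratio of the measured protein-coding genes that start within 3 Mb of it, other members left out, was set beside its own. Across the 41 members, some of which share neighbours, the Pearson correlation was 0.61 for CTXR against DTXR, 0.43 for CTXR against DU145 and 0.33 for DTXR against DU145. It was 0.22 for CabR against TaxR, 0.34 for CabR against C4-2B and -0.11 for TaxR against C4-2B. The neighbour medians varied more in CTXR against DTXR (SD 0.32) than in CabR against TaxR (SD 0.15). The same correlation was not computed for other measured genes, so it is not shown to be particular to the members.

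MKI67 (chromosome 10, 128096659 to 128126385, minus strand, GRCh38) had a ratio of -0.95 in CTXR against DTXR, and its 10 neighbours a median of -1.01. BUB3, also on chromosome 10, had -0.77 and its 28 neighbours -0.60. The members on chromosome 20, AURKA, UBE2C and TPX2, had ratios of 0.38, 0.79 and 0.04, with neighbour medians of 0.43, 0.48 and 0.45. CCNB2 had -0.76 beside -0.54, CCNA2 -0.56 beside -0.50, and NUF2 0.38 beside 0.29. By contrast, BUB1B had -0.80 beside -0.23, NUSAP1 -0.61 beside -0.23 and FOXM1 -0.67 beside -0.03. CCNB1 had -0.71 beside -0.20 and NDC80 -0.85 beside -0.34. Other members had the opposite sign to their neighbours. ECT2 had 0.65 beside -0.22, TTK -0.29 beside 0.42, INCENP -0.39 beside 0.16 and ANLN 0.18 beside -0.43. In CabR against TaxR the neighbour medians of the members lay between -0.48 and 0.30, and those of PTTG1 and CENPF were -0.11 and 0.00 beside member ratios of 1.29 and 1.04. DNA copy number was not measured in these files, and its part in the ratios was not tested.

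**Figure D5:**
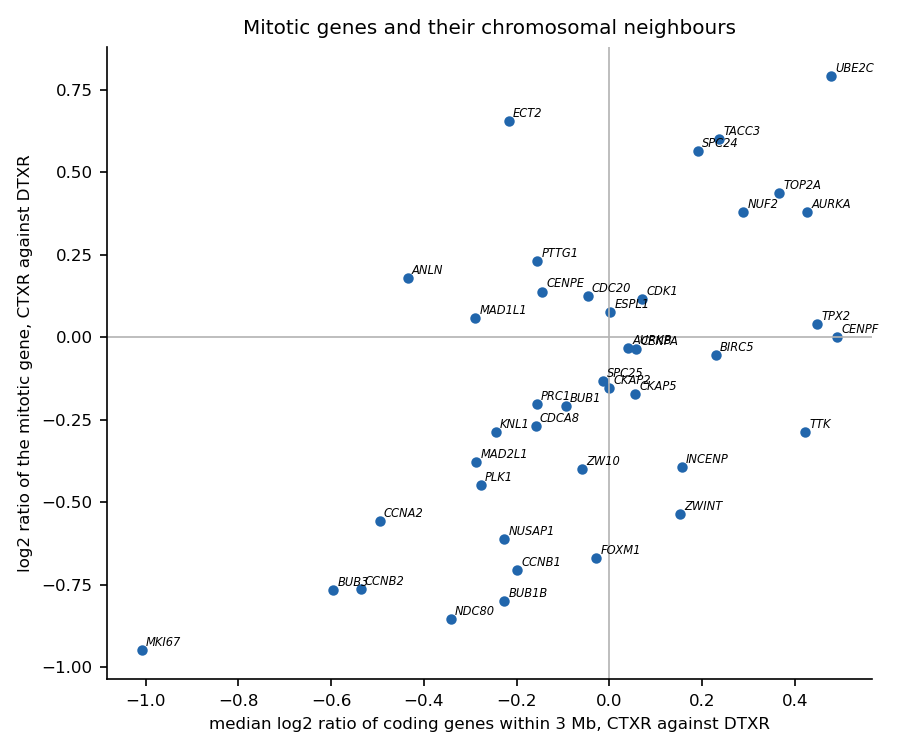
log2 ratio of each mitotic gene (vertical) against the median log2 ratio of measured protein-coding genes within 3 Mb of its start (horizontal), both for CTXR against DTXR, 1 point per gene for 41 genes. MKI67 and BUB3 lie at the lower left, UBE2C and AURKA at the upper right, and the Pearson correlation was 0.61.

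Other genes of mitosis were taken from lists that hold no member, and 5 of these lists, DNA replication included, had medians of the same sign as the members in both steps. Of 18 mitotic kinesins and spindle proteins, 10 were 1.5-fold higher in CabR than in TaxR (55.6%), against 5.62% of all measured genes. In CTXR against DTXR none was 1.5-fold higher (16.6% of all measured genes) and 2 were 1.5-fold lower (14.7%), and the medians were 0.61 and -0.17. KIF2C, a kinesin that depolymerises microtubules, had 30.2, 14.6 and 26.8 FPKM in CabR, TaxR and C4-2B and 16.7, 21.8 and 26.3 FPKM in CTXR, DTXR and DU145. KIF18A, which shortens kinetochore fibres, was 2-fold higher in CabR than in TaxR at 4.13 and 1.35 FPKM, against 2.18 FPKM in C4-2B. Of 12 regulators of G2 and mitosis 8 were 1.5-fold higher in CabR than in TaxR (66.7%), and in CTXR against DTXR 1 was 1.5-fold higher and 1 lower, with medians of 0.66 and -0.32.

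The inner kinetochore list (23 measured genes) had medians of 0.41 and -0.15 and the cohesin and condensin list (19 genes) 0.34 and -0.34. DNA replication genes (25), which act earlier in the cycle, had 0.13 in CabR against TaxR and -0.36 in CTXR against DTXR, with 1 gene (4%) and 0 genes at least 1.5-fold higher. In CTXR against DTXR 22 of the 25 ratios were negative and 5 genes were 1.5-fold lower (20%), against 14.7% of all measured genes. The subunits and regulators of the anaphase-promoting complex (14 genes) had medians of 0.10 and 0.04. By the 1.5-fold rule 1 of the 14 was higher in CabR than in TaxR and 1 lower (7.14% each), against 5.62% and 6.19% of all measured genes. The chain-elongating enzyme UBE2S was 2-fold higher in CabR at 150.1 FPKM, against 71.6 FPKM in TaxR and 138 FPKM in C4-2B. Its log2 ratio in CTXR against DTXR was -0.18. ANAPC10 was the lower gene, with 15.4, 25.6 and 10.3 FPKM in CabR, TaxR and C4-2B. The MuvB, DREAM and E2F factors (15 genes) had -0.02 and -0.01. MYBL2, or B-MYB, had 61.7, 47.2 and 48.5 FPKM in CabR, TaxR and C4-2B and 38.1 to 41.1 FPKM in the DU145 lineage.

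Of 12 p53 targets and CDK inhibitors 7 had positive and 5 negative ratios in CTXR against DTXR. The negative ratios, from -0.23 to -0.10, were those of the p53 targets MDM2, GADD45A, SESN1 and FAS and of CDKN2B. By the 1.5-fold rule 5 of the 12 were higher (41.7%), against 16.6% of all measured genes, and none was lower (14.7%). They were CDKN1A, CDKN1B, CDKN1C, CDKN2C and BTG2. Of these, CDKN1B and CDKN2C passed 2-fold, where 7.29% of measured genes did. CDKN1B, the p27 inhibitor, had 27.2 FPKM in CTXR, 12.4 FPKM in DTXR and 15.9 FPKM in DU145, and CDKN2C, the p18 inhibitor, 37.9, 15.4 and 15.2 FPKM. CTXR had the highest value of both genes in its lineage. In CabR against TaxR both also had positive ratios, 0.39 for CDKN1B and 0.67 for CDKN2C. There 9 of the 12 ratios were negative and the list median was -0.20, while it was 0.45 in CTXR against DTXR. CDKN1C, the p57 inhibitor, was also 1.5-fold higher in CTXR than in DTXR but highest in DU145, at 2.66, 1.42 and 7.67 FPKM in CTXR, DTXR and DU145. CDKN1A, the p21 inhibitor and p53 target, had 43.9, 50.9 and 39.5 FPKM in CabR, TaxR and C4-2B and 29.7, 19.2 and 24.0 FPKM in CTXR, DTXR and DU145.

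By their summed levels the markers of the 2 lineages went with the labels. KLK3, the prostate-specific antigen gene and a marker of the C4-2B lineage, had 841, 3053 and 3567 FPKM in CabR, TaxR and C4-2B, and 0.301 and 0.148 FPKM in CTXR and DTXR, and was listed at 0 in DU145. The 10 DU145-lineage markers summed to 46.9 FPKM in CabR, 100.0 FPKM in TaxR and 68.9 FPKM in C4-2B, and to 2950 to 3914 FPKM in the DU145 lineage, and 8 of the 10 were 2-fold higher in TaxR than in C4-2B. ANXA1, DKK1 and S100A6 were at 0 in C4-2B. All 10 of these markers reached 1 FPKM in TaxR, against 2 in C4-2B and 3 in CabR. Set against the DU145 library, the excess in TaxR was 1.38% of the DU145 level by the median of the markers (range -0.04% to 5.26%), and with that share of DU145 subtracted from TaxR the members' median in CabR against TaxR was 0.66. Of 10 markers of leukocytes, endothelium, fibroblasts and erythrocytes, which summed to 3.15 to 15.6 FPKM per library, 1 or 2 reached 1 FPKM in each. PTPRC was at 0 in all 6 libraries, and COL1A1 lay between 2.33 and 12.3 FPKM.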

How the data were processed

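RNA of 6 cell lines was extracted with TRIzol and made into stranded mRNA libraries with a directional kit, per the labels' protocols. The authors deposited FPKM per gene and library, per the file headers. The submitters' processing notes name HISAT, StringTie, Cuffnorm and GRCh38, and versions, annotation, handling of strand and scaling between libraries were not found in the labels or headers. Estimated FPKM can divide reads between copies and overlapping genes.

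Groups came from the sample labels. Symbols, biotypes and coordinates came from GENCODE release 29, which matched 57047 of 60658 identifiers. FPKM were used as deposited, as log2(FPKM + 1), over the 17436 genes that reached 1 FPKM in at least 1 library. With 1 library per line, genes were called by size, at 2-fold or 1.5-fold. The 41 genes, their roles and the related lists were chosen with earlier results of these data known. Values are given for the members past 2-fold in any of the 6 comparisons and for the 5 highest and 5 lowest of each, and for related lists for up to 3 genes with the largest ratios in each cabazitaxel step, from which some were printed. MYBL2, CDKN1A and the markers' zeros were named after their values were seen, as the neighbouring genes were. So were the p53 targets and CDK inhibitors with negative ratios in CTXR against DTXR.

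limma was fitted to all 6 libraries with lineage and resistance as terms, an intensity trend and two-sided tests, adjusted by Benjamini-Hochberg over all measured genes, and was tested on simulated data. Nothing in the labels says that a line was cultured more than once, so no replicate error of a line enters the limma p-values. The spread behind them is how far the 2 lineages disagree in the resistance steps, shared over genes. Such disagreement and error between libraries cannot be told apart. The difference between the cabazitaxel steps was fitted with a shared docetaxel step, so its estimate averages the differences taken from the docetaxel-resistant and the parental lines. Promoters came from RefSeq for GRCh38.p14, and motifs were searched on both strands. The comparison with genes within 3 Mb was added after seeing the data, and so was its alternative of 5 Mb. Some items are not reported here. Other pseudocounts, filters, scalings, fits and left-out libraries were tried. Software versions were limma 3.58.1 in R 4.3.3, and pandas 2.3.3, numpy 2.4.6 and matplotlib 3.10.9 in Python 3.11.15.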

Additional observations from a re-analysis of the deposited data

Results flagged for a closer look

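The 2 lineages differed in the sign of the members' median ratio at the cabazitaxel step. The members' median log2 ratio was 0.65 in CabR against TaxR, with 38 of 41 ratios positive, and -0.15 in CTXR against DTXR, with 15 positive. Of all measured genes 46.5% and 48.1% had positive ratios there. In CTXR against DTXR 3 members were 1.5-fold higher (7.32%) and 8 were 1.5-fold lower (19.5%), against 16.6% and 14.7% of all measured genes. Each median rests on a single pair of libraries, and the difference between the medians was not tested.

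CCNB1, CCNB2, BUB1B, NDC80, NUSAP1 and FOXM1 were each at least 1.5-fold higher in CabR than in TaxR and at least 1.5-fold lower in CTXR than in DTXR. The plain difference between the steps, as the C4-2B lineage minus the DU145 lineage on the log2 scale, was 1.65 for CCNB1, 1.59 for CCNB2, 1.53 for BUB1B, 1.45 for NDC80, 1.54 for NUSAP1 and 1.28 for FOXM1. The limma estimate, which shares the docetaxel step and so averages that difference with the same difference taken from the parental lines, was 1.29 for CCNB1, 1.15 for CCNB2, 1.44 for BUB1B, 1.42 for NDC80, 1.30 for NUSAP1 and 0.80 for FOXM1. Its limma adjusted p was 0.76 for the first 5 and 0.77 for FOXM1, so none passed the correction.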

How the results depend on the processing

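No member median changed sign under any alternative, and no ratio of a member past 2-fold did. Alternatives that changed only the gene filter could not alter either, because every member stayed in. The medians ranged from 0.63 to 0.70 in CabR against TaxR, 0.17 to 0.32 in CabR against C4-2B, -0.53 to -0.33 in TaxR against C4-2B, -0.26 to -0.10 in CTXR against DTXR, -0.39 to -0.22 in CTXR against DU145 and -0.16 to -0.08 in DTXR against DU145.

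In CabR against TaxR 2 members were 2-fold higher, but 4 with a pseudocount of 0.1, 5 with equal library totals and 4 with equal totals without mitochondrial genes. With equal totals the median of TaxR against C4-2B was -0.53, with 4 members 2-fold and 16 members 1.5-fold lower, while the median of all genes there was -0.12. Without mitochondrial genes in the total, the median was -0.39 in CTXR against DU145, with 2 members 2-fold lower, 12 members 1.5-fold lower and 1 member 1.5-fold higher. In CTXR against DTXR it was -0.26, with 1 member 2-fold lower and 1 member 1.5-fold higher. In CabR against C4-2B 1 member was 1.5-fold lower under that scaling, the same upper quartile and median-ratio size factors. With median-ratio size factors 0 members were 2-fold lower in CTXR against DU145.

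The 1.5-fold rule in place of 2-fold gave 26 members higher in CabR against TaxR, 8 lower in TaxR against C4-2B, in CabR against C4-2B 6 higher and 2 lower, 3 higher and 8 lower in CTXR against DTXR, 3 higher and 6 lower in CTXR against DU145 and 4 lower in DTXR against DU145. Of 440 recomputed ratios of members named in a comparison, 13 crossed 2-fold. The 440 include ratios under other gene filters, which could not change. Over the scalings 38 of 41 ratios were positive in CabR against TaxR, 23 to 29 were negative in CTXR against DTXR, and TaxR was lowest of its lineage for 32 to 36 members.

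limma called 2 genes with a pseudocount of 0.1 for cabazitaxel-resistant against docetaxel-resistant lines and 1 gene against parental lines. With a mean of 5 FPKM as the filter it called 1 gene for the difference between steps. Leaving out each library in turn gave 0 calls in the other 3 contrasts, and the step difference could not be fitted then. The lone library left in a group is assumed to vary like the others. No paired analysis was possible because each line has 1 library and the labels carry no replicate numbers, and lineage was a term in every fit. Read depth is unknown, so the counting error of low values is too. The causes of these differences were not tested.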
